A study of Mus musculus with 24 samples.

Results

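The genes that encode the claudins of the intestinal epithelium, occludin and the scaffold protein ZO-1 were followed in sorted Atoh1-lineage cells of mouse small intestine (SI) and colon. The set was Cldn1, Cldn2, Cldn3, Cldn4, Cldn7, Cldn8, Cldn15, Cldn23, Ocln and Tjp1, that is 10 of the 45513 genes counted, and all 10 were found by matching the Ensembl identifiers of the count files to mouse symbols. Mice were adults of both sexes on a C57BL/6 background and homozygous for 1 of 2 knock-in alleles at the Atoh1 locus, Atoh1(WT)CreERT2 (WT) or Atoh1(9S/T-A)CreERT2 (9S/T-A). In the second allele, 9 serine or threonine residues of ATOH1 were replaced by alanine. The 4 groups were the SI and the colon of each genotype, with 6 libraries each. All 4 carried the R26RtdTom reporter, all received 3 mg tamoxifen, and the controls therefore carried the inducible Cre as well. EpCAM+tdTom+ live cells were sorted the day after the injection, from the proximal SI and from the colon after the villus-enriched fraction was discarded. The Cre is driven by Atoh1, a factor of the secretory lineage, so that the sorted cells are those that expressed Atoh1 around the injection and do not represent the absorptive epithelium.

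Tight junctions seal the space between neighbouring epithelial cells near their apical end. Claudins are the membrane proteins that form their strands, and the claudins present decide which ions pass: Cldn2 and Cldn15 encode claudins that form paracellular cation pores, while Cldn1, Cldn3, Cldn4 and Cldn8 encode claudins regarded as sealing. Cldn7 encodes a claudin that also lies along the lateral membrane, where it associates with EpCAM. Occludin (Ocln) is a further strand protein, and ZO-1 (Tjp1) is the cytoplasmic scaffold that ties strands to the actin cytoskeleton. In the gut the claudin set changes along the crypt axis and from the SI to the colon.

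Total counts ranged from 35.968 to 65.797 M per library (M, mega). The labelled cell type was checked first. Epcam averaged 508 RPKM (reads per kb of exon per M counts, after TMM scaling) in WT SI, 489 in 9S/T-A SI, 504 in WT colon and 483 in 9S/T-A colon. The 7 goblet markers together reached 311900 to 503000 CPM in the SI libraries and 34520 to 79910 in the colon libraries. CPM are counts per M after the same TMM scaling, so they are not shares of a library's own counts. The 8 stromal markers together reached 1.59 to 2.87 CPM and the 4 enteric glia markers 0.105 to 1.66 CPM, with Col3a1, Lum and Sox10 at 0 counts in every library, and the 8 leukocyte markers together reached 8.38 to 21.0 CPM in SI and 4.32 to 7.84 in colon. The 20 most abundant genes of a library took 37.2 to 44.8% of its counts in SI and 12.3 to 19.4% in colon, which matters for every comparison of the tissues below.

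The 10 genes differ in structure. Cldn3, Cldn4, Cldn8 and Cldn23 (4 of 10) consist of a single exon in the annotation used for counting, and exon lengths ran from 1.259 kb for Cldn3 to 7.36 kb for Tjp1. Cldn3 (GRCm38, chromosome 5, 134986214 to 134987472, plus strand) and Cldn4 (chromosome 5, 134945126 to 134946934, minus strand) lie 39.3 kb apart on opposite strands. Cldn2 lies on chromosome X (139800828 to 139811386, plus strand) and Cldn15 on chromosome 5 (136966616 to 136975858, plus strand). The exons of Cldn3 overlap those of Wbscr25 on the other strand. That gene had 67 counts over all libraries and counting was by strand. The other members' exons overlapped no other gene.

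The promoters of 4 members are shown because they pair genes with like and unlike levels: Cldn2 was the only member that edgeR called for genotype, Cldn15 is the other pore-forming claudin, and Cldn3 and Cldn4 are neighbours with different levels in colon. RefSeq (GRCm38.p6) gave promoters for 8 of the 10 members. The 250 bases before each gene's RefSeq start are printed 5′ to 3′ on the strand of the gene, Cldn2 at chrX:139800558-139800807, Cldn15 at chr5:136967619-136967868, Cldn3 at chr5:134985964-134986213 and Cldn4 at chr5:134946935-134947184. The RefSeq start of Cldn15 lies downstream of the start in the annotation used for counting, so its window falls inside the gene as given above. Capitals mark CAGATG or CAGCTG, the E-box forms bound by ATOH1, and TTTATG or TTTATT, forms bound by CDX factors, each searched on both strands.
Cldn2: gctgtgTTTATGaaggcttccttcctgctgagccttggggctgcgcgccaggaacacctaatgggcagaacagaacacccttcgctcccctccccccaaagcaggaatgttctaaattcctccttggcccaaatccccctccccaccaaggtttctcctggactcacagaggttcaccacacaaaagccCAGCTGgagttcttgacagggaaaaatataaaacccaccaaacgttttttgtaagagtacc
Cldn15: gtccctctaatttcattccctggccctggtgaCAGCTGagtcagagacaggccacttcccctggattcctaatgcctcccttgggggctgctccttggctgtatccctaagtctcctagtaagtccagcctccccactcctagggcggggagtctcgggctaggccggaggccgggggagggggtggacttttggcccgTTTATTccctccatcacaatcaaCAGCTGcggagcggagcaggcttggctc
Cldn3: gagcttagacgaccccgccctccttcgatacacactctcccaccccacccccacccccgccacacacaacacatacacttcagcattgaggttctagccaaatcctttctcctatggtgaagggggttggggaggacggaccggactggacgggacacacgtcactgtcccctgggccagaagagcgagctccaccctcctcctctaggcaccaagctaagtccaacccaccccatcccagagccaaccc
Cldn4: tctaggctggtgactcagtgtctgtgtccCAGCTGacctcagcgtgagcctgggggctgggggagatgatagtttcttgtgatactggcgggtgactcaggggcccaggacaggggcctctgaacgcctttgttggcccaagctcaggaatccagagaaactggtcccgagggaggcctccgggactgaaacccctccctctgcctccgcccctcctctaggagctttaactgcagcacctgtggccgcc
The E-box forms CAGATG or CAGCTG were found 1 time in the Cldn2 promoter, 2 times in that of Cldn15 and 1 time in that of Cldn4, and not in the Cldn3 window. Of 32817 promoter windows of the same length, 25.5% held one. The CDX letters stood 1 time each before Cldn2 and Cldn15, and 25.5% of all windows held them. The GATA letters GATAA were in none of these 4 windows but in that of Tjp1, against 22.6% of all windows, and any E-box (CANNTG, which includes the forms above) was in 66.2%. These matches describe the letters of the windows only.

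Levels per exon length put the members into a high and a low class. In WT SI, Cldn3 was the most abundant at 484 ± 34.0 RPKM (SD, n = 6), ahead of Cldn4 at 315 ± 66.4, Cldn7 at 305 ± 10.04 and Cldn15 at 217 ± 15.0. Ocln (27.4 ± 1.99), Cldn2 (26.8 ± 2.90), Cldn23 (12.2 ± 2.12) and Tjp1 (11.7 ± 1.54) followed at a much lower level. Cldn8 was at 0.268 ± 0.0861 RPKM, with 13 to 42 counts per library. In this order, 3 neighbouring pairs could not be separated by library: Cldn4 exceeded Cldn7 in 3 of 6 libraries, Ocln exceeded Cldn2 in 4 of 6 and Cldn23 exceeded Tjp1 in 4 of 6. In 9S/T-A SI the first 4 genes had the same order (562, 440, 316 and 251 RPKM), and Cldn2 at 17.3 ± 4.45 stood beside Cldn23 at 16.7 ± 3.03, which it exceeded in 3 of 6 libraries.

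In WT colon the order was different. Cldn3 (361 ± 48.9 RPKM), Cldn7 (232 ± 25.7) and Cldn15 (161 ± 25.1) were again high, and Cldn2 came next at 105 ± 11.1, above Cldn4 at 56.1 ± 21.3 in 6 of 6 libraries although their ranges overlapped. Cldn8 (16.7 ± 3.04), Ocln (16.4 ± 1.66) and Cldn23 (15.7 ± 1.77) were level with each other, since Cldn8 exceeded Ocln in 3 of 6 libraries and Ocln exceeded Cldn23 in 3 of 6. Tjp1 was at 7.86 ± 0.561. In 9S/T-A colon the order of the 5 most abundant genes was the same as in WT colon (327, 220, 144, 112 and 71.9 RPKM), and Cldn2 exceeded Cldn4 in 5 of 6 libraries.

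**Figure D1:**
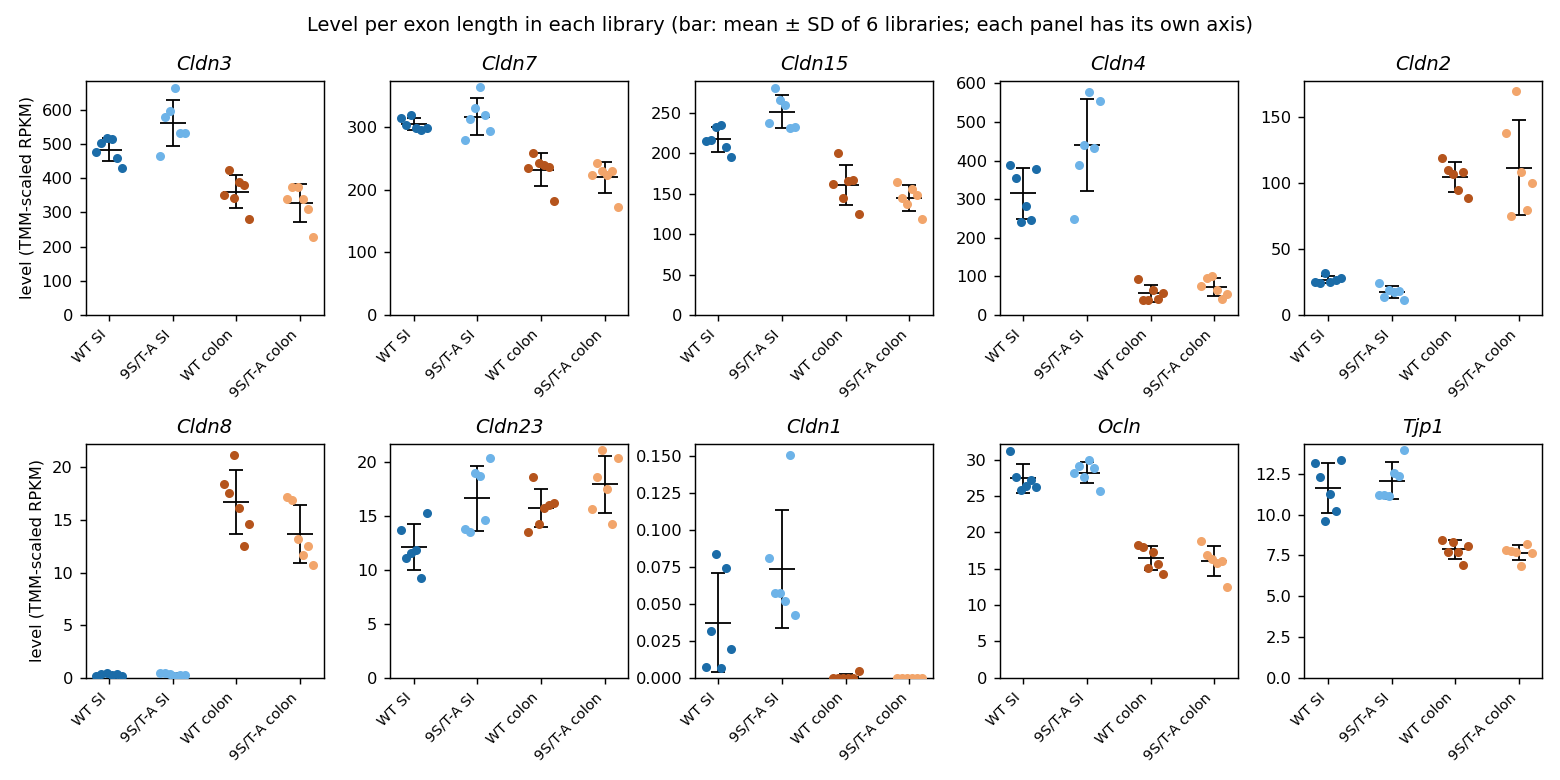
Level of each gene in each of the 24 libraries, in TMM-scaled RPKM on a linear axis that starts at 0 and differs between panels; points are libraries in order of replicate number, bars the mean ± SD of 6. Cldn2 and Cldn8 sit higher in colon (Cldn2 88.6 to 120 RPKM in WT colon against 24.6 to 32.2 in WT SI), Cldn4 sits lower there (38.4 to 93.7 against 242 to 389), and Cldn1 stays at or below 0.151 RPKM throughout.

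Cldn1, a sealing claudin of many epithelia, was close to absent. It had 1, 1, 2, 4, 11 and 12 counts in the WT SI libraries and 6, 7, 8, 8, 10 and 23 in 9S/T-A SI. In WT colon it had 1 count in 1 library and 0 in the other 5, and in 9S/T-A colon it had 0 in all 6. A count of 0 allows up to 3 counts, which is 0.046 to 0.067 per M of the plain totals of these 11 colon libraries. That limit covers counting error only. Cldn1 did not pass the filter on low counts and was not tested, so the tests below cover 9 of the 10 members.

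The make-up of the set within a library was also followed, since no scaling between libraries can change it. Cldn3 took 34.6 ± 2.44% of the summed RPKM of the 10 genes in WT SI, 34.2 ± 1.49% in 9S/T-A SI, 37.1 ± 1.81% in WT colon and 35.0 ± 2.19% in 9S/T-A colon. Cldn15 took 15.5 ± 1.17%, 15.5 ± 1.93%, 16.5 ± 1.03% and 15.6 ± 1.66% in the same order, and Cldn7 took 21.8 ± 0.95%, 19.3 ± 1.32%, 23.9 ± 1.06% and 23.7 ± 1.81%. Together these 3 genes took 66.7 to 76.9% in WT SI, 62.9 to 75.1% in 9S/T-A SI, 73.3 to 80.6% in WT colon and 69.3 to 79.8% in 9S/T-A colon, and the ranges of the tissues overlapped in both genotypes. The shares of Cldn4, Cldn2, Cldn8 and Cldn23 did not overlap between the tissues in either genotype. Those of Ocln did not overlap in WT alone, and those of Cldn7 and Cldn1 in 9S/T-A alone. Cldn8 took at most 0.0324% in SI and at least 1.23% in colon. Cldn23 took 0.722 to 1.11% in WT SI and 1.33 to 2.06% in WT colon. In 9S/T-A it took 0.830 to 1.21% in SI and 1.57 to 2.82% in colon. The RPKM of Cldn23, in contrast, overlapped between the tissues in both genotypes. A share also depends on the other genes of the set. The summed RPKM after TMM scaling averaged 1399 in WT SI and 972 in WT colon, and 1644 and 930.5 in 9S/T-A. Cldn4 took 17.4 to 27.3% in WT SI and 19.0 to 32.9% in 9S/T-A SI, but 3.62 to 9.21% in WT colon and 4.95 to 9.54% in 9S/T-A colon. Cldn2 took 1.70 to 2.31% in WT SI, 0.690 to 1.84% in 9S/T-A SI, 9.41 to 11.7% in WT colon and 7.58 to 15.9% in 9S/T-A colon. The Cldn2 to Cldn4 ratio in a library was 0.0647 to 0.133 in WT SI, 0.0210 to 0.0969 in 9S/T-A SI, 1.28 to 2.79 in WT colon and 0.794 to 1.87 in 9S/T-A colon.

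**Figure D2:**
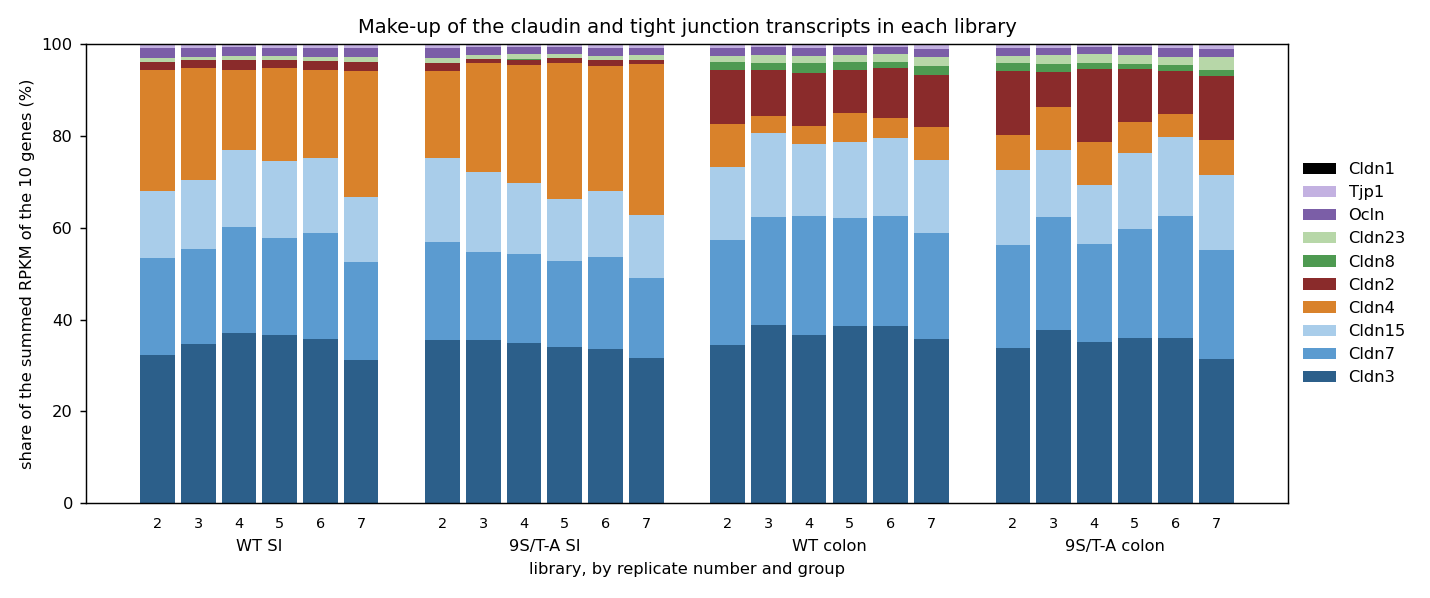
Share of each gene in the summed RPKM of the 10 genes, in percent, as 1 stacked bar per library ordered by group and replicate number. The blue segments (Cldn3, Cldn7 and Cldn15) together fill 62.9 to 80.6% of a bar, the orange Cldn4 segment is large in SI (17.4 to 32.9%) and small in colon (3.62 to 9.54%), and the dark red Cldn2 segment is the reverse (0.690 to 2.31% in SI, 7.58 to 15.9% in colon).

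Cldn3, Cldn7, Cldn15 and Ocln also varied together among libraries of the same group. The ratio of Cldn3 to Cldn15 had a mean of 2.23 ± 0.0485 in WT SI, 2.24 ± 0.208 in 9S/T-A SI, 2.25 ± 0.101 in WT colon and 2.27 ± 0.33 in 9S/T-A colon (SD, n = 6 each). The replicate number 7 library had the lowest level of both genes, and of Cldn7, in WT colon (281, 125 and 182 RPKM for Cldn3, Cldn15 and Cldn7) and in 9S/T-A colon (227, 118 and 172). Over the 24 libraries, with each group's mean removed, Pearson's r was 0.90 for Cldn3 and Cldn7, 0.76 for Cldn3 and Cldn15 and 0.70 for Cldn7 and Cldn15. Ocln had an r of 0.65 with Cldn3, 0.69 with Cldn7 and 0.66 with Cldn15. For Cldn2 it was 0.10 with Cldn3 and 0.11 with Cldn15. These values are descriptions, since the points share mice, scaling and depth. Like patterns over the 24 libraries were searched among tested genes averaging 1 log2 CPM or more. There the gene whose log2 CPM followed Cldn3 most closely was Cldn7 (Pearson's r = 0.97), then Efnb1 (0.96). Efnb1 was also second for Cldn15 (0.96) after B3galt4 (0.97). The closest for the other members were Lrch1 and Fam57a (0.98 each) for Cldn2, Sowahb and 2210011C24Rik (0.98 each) for Cldn4, Rhog and Elovl1 (0.97 each) for Cldn7, and Slc6a14 and St6gal1 (0.997 each) for Cldn8. They were Cdh17 (0.99) and Tspan8 (0.98) for Ocln, Chuk (0.98) and Fam83b (0.97) for Tjp1, and Tppp (0.83) and Mlx (0.80) for Cldn23. These values include the difference between the tissues.

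**Figure D3:**
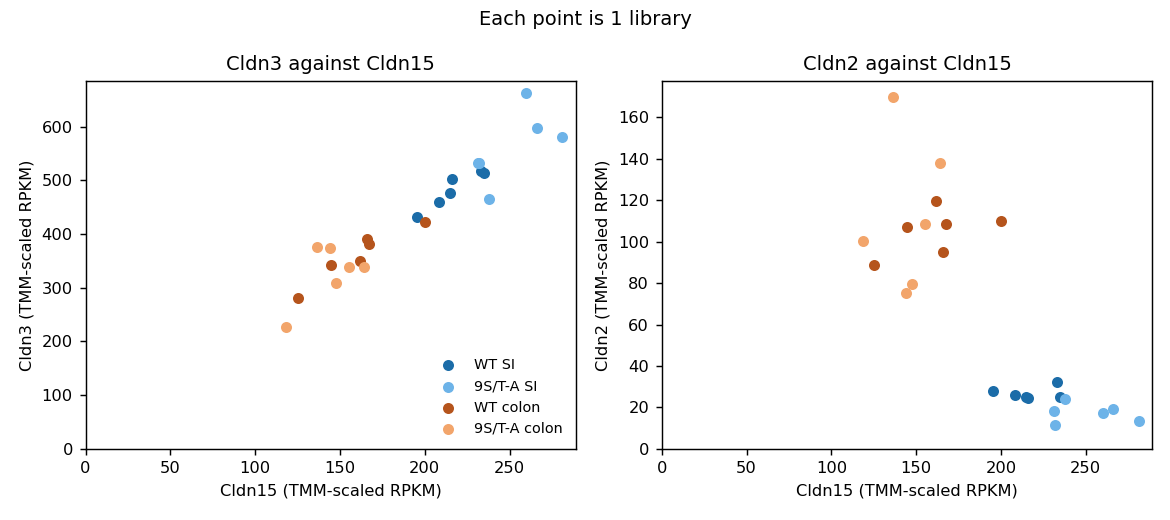
Cldn3 (left) and Cldn2 (right) against Cldn15 in TMM-scaled RPKM, 1 point per library and axes from 0, coloured by group. On the left the 4 groups lie along 1 line (mean ratio 2.23 to 2.27), and on the right SI and colon libraries form separate clouds, with mean Cldn2 to Cldn15 ratios of 0.124 in WT SI, 0.0696 in 9S/T-A SI, 0.660 in WT colon and 0.781 in 9S/T-A colon.

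The effect of the phosphomutant allele was tested within each tissue (edgeR quasi-likelihood test, two-sided, adjusted over all genes tested; a gene is called where adjusted p is below 0.05). In SI, 315 of 16236 genes were called (1.94%), and 1 of the 9 tested members was, Cldn2, which was lower in 9S/T-A (0.905% of all genes were called lower). Cldn2 ranged from 24.6 to 32.2 RPKM in WT SI with a median of 25.7, and from 11.6 to 24.01 in 9S/T-A SI with a median of 17.9. Each 9S/T-A library lay below each WT library, while with plain library totals 5 of the 6 did. The log2 fold change was -0.63 (SE 0.15, edgeR adjusted p = 0.0402), a 1.55-fold lower level. In bulk RNA, fewer cells of a type that expresses Cldn2 and less Cldn2 RNA per cell cannot be told apart. With 1 library left out, 11 of 12 fits lost it (adjusted p up to 0.0976), and only without 9S/T-A SI replicate 2, which had the highest Cldn2 level of its group, did it stay (adjusted p = 0.00777), while the log2 fold change remained between -0.75 and -0.54 in all 12. Relative to Cldn15 in the same library, Cldn2 was at 0.106 to 0.143 in WT SI and at 0.0472 to 0.101 in 9S/T-A SI, without overlap. Relative to Cldn7 it was at 0.0801 to 0.101 and 0.0397 to 0.0861, and those ranges overlapped, as did the ratios to Cldn4 given above.

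Other cell type markers moved in the same SI comparison. Of 6 Paneth cell markers, 4 were called lower in 9S/T-A SI, namely Mmp7 (log2 fold change -1.25, edgeR adjusted p = 0.0072), Ang4 (-1.11, 0.00607), Itln1 (-0.98, 0.00958) and Pla2g2a (-0.60, 0.0333). The summed level of the 6 was 47150 to 74030 CPM in WT SI and 36810 to 58020 in 9S/T-A SI. Of 6 tuft cell markers, Gfi1b (-1.76, adjusted p = 0.00637) and Pou2f3 (-1.18, 0.0197) were called lower, and the summed level was 55.2 to 131 CPM in WT SI and 20.4 to 112 in 9S/T-A SI. Of 35 goblet, stem, cycling, enteroendocrine and absorptive markers, edgeR called 0 (14 had an unadjusted p below 0.05) and DESeq2 called 5, namely Apoa4, Clca1, Fabp2, Pax4 and Smoc2. Mmp7 was also called in the test of whether the genotype difference differed between the tissues (2.096, SE 0.45, edgeR adjusted p = 0.0318). Summed stem cell markers were 1043 to 1472 CPM in WT SI and 832 to 1454 in 9S/T-A SI. The part of these cell types in the Cldn2 value was not tested.

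The other 8 tested members did not pass the threshold in SI. Cldn23 had 9.26 to 15.3 RPKM in WT SI and 13.5 to 20.4 in 9S/T-A SI (log2 fold change 0.46, SE 0.13, edgeR adjusted p = 0.110), and Cldn4 had 242 to 389 and 248 to 579 (0.48, SE 0.19, adjusted p = 0.224). The ranges overlapped for both genes. Cldn23 was below the threshold with DESeq2 (adjusted p = 0.0384) and with all 24 libraries in the fit (0.0449). Cldn4 was below it without 9S/T-A SI replicate 2 (0.0471), the library with the lowest Cldn4 level of its group. Cldn3 (0.21, SE 0.09) and Cldn15 (0.21, SE 0.08) had adjusted p of 0.257 and 0.193. Cldn7, Ocln and Tjp1 had log2 fold changes of 0.05, 0.04 and 0.05 with SEs of 0.07, 0.06 and 0.09, and the sign of all 3 turned with plain library totals (-0.07, -0.07 and -0.06). Cldn8 had 13 to 42 and 11 to 48 counts per library (0.17, SE 0.30). The median log2 fold change of the 9 members was 0.17, beside 0.00 over all genes tested.

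In colon, 54 of 16997 genes were called for genotype (0.318%) and 0 of the 9 tested members, with edgeR as with DESeq2, and 0 members had an unadjusted p below 0.05. Cldn2 ranged from 88.6 to 120 RPKM in WT colon with a median of 108, and from 75.0 to 170 in 9S/T-A colon with a median of 104. The 9S/T-A colon libraries thus spread on both sides of the WT range (log2 fold change 0.11, SE 0.17, edgeR adjusted p = 0.994). Cldn8 was at 12.5 to 21.2 RPKM in WT colon and 10.7 to 17.2 in 9S/T-A colon (-0.27, SE 0.13, adjusted p = 0.600), and Cldn4 at 38.4 to 93.7 and 42.5 to 100.3 (0.37, SE 0.24, adjusted p = 0.771). The log2 fold changes of the 9 members lay between -0.27 and 0.37, with a median of -0.02 beside 0.00 over all genes.

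Whether the genotype difference itself differed between the tissues was tested over the 24 libraries. Of 17953 genes, 74 were called (0.412%), and 0 of 9 members were with edgeR or with DESeq2, although Cldn2, Cldn3 and Cldn15 (3 members) had an unadjusted p below 0.05. For Cldn2 the difference of the 2 genotype effects (colon minus SI) was 0.72 on the log2 scale (SE 0.24, edgeR adjusted p = 0.230). The SI and colon libraries with the same genotype and number deviated together from their group means. They were taken as paired, although it was not shown that they came from the same mouse. With that pairing as a replicate block in the fit, Cldn2 had a difference of 0.70 (SE 0.16, adjusted p = 0.0382) and was the 1 member called, among 342 genes called in all. Cldn3 and Cldn15 had differences of -0.36 (SE 0.16) and -0.37 (SE 0.14) in the fit without the block, with adjusted p of 0.440 and 0.313.

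**Figure D4:**
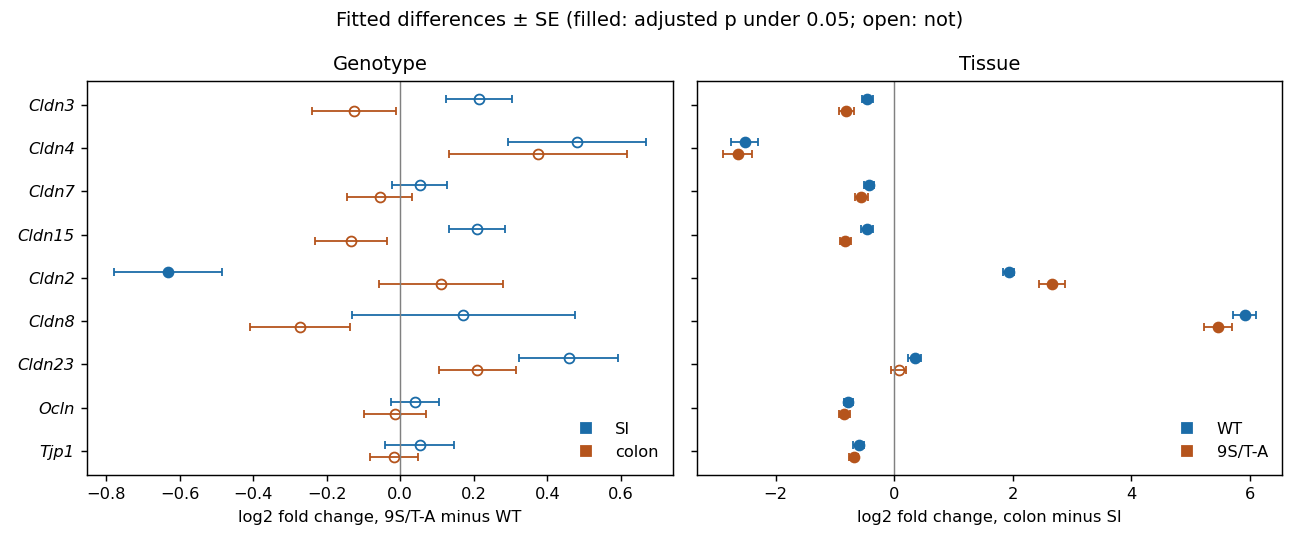
Fitted log2 fold changes with their SE for the 9 tested genes, for genotype (left, 9S/T-A minus WT, in SI and colon) and tissue (right, colon minus SI, in WT and 9S/T-A); filled points passed an adjusted p of 0.05 and open points did not. On the left only Cldn2 in SI is filled (-0.63), and on the right only Cldn23 in 9S/T-A is open (0.08). Cldn8 (5.91 in WT and 5.46 in 9S/T-A) lies farthest from 0. Next come Cldn4 (-2.53) in WT, and Cldn2 (2.66) and Cldn4 (-2.64) in 9S/T-A.

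Between the tissues most genes differed. In WT, 63.6% of 16979 genes were called (33.1% higher and 30.4% lower in colon), and so were all 9 tested members, 3 higher and 6 lower. In 9S/T-A, 60.9% of 16938 genes were called (32.9% higher and 28.0% lower) and 8 of 9 members, 2 higher and 6 lower. Since most genes were called, the sizes of the differences are given member by member.

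Cldn8, a sealing claudin of the distal gut and distal nephron, differed most. It had 13 to 42 counts per library in WT SI and 1795 to 3286 in WT colon, or 0.176 to 0.403 RPKM with a median of 0.259 against 12.5 to 21.2 with a median of 16.9. In 9S/T-A the values were 0.131 to 0.471 RPKM (median 0.297) and 10.7 to 17.2 (median 12.8). The log2 fold change was 5.91 (SE 0.19, edgeR adjusted p = 9.18e-13) in WT and 5.46 (SE 0.24, adjusted p = 4.05e-11) in 9S/T-A.

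Cldn2, the cation pore of leaky epithelia, was also higher in colon. The 2 tissues did not overlap in either genotype, with the highest SI level at 32.2 RPKM and the lowest colon level at 75.0. The log2 fold change was 1.93 (SE 0.09, edgeR adjusted p = 7.93e-11) in WT and 2.66 (SE 0.22, adjusted p = 5.92e-08) in 9S/T-A, that is 3.82-fold and 6.33-fold. The other pore-forming claudin, Cldn15, had 195 to 235 RPKM in WT SI and 125 to 200 in WT colon, and its log2 fold change was -0.47 (SE 0.10, adjusted p = 0.000894) in WT and -0.83 (SE 0.10, adjusted p = 2.38e-06) in 9S/T-A.

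Cldn4, a sealing claudin, was the member that was lower in colon by the largest amount. It had 242 to 389 RPKM in WT SI with a median of 318 and 38.4 to 93.7 in WT colon with a median of 50.1. In 9S/T-A SI it had 248 to 579 (median 437) and in 9S/T-A colon 42.5 to 100.3 (median 69.6). No colon library reached the lowest SI library. The log2 fold change was -2.53 (SE 0.22, edgeR adjusted p = 8.91e-08) in WT and -2.64 (SE 0.24, adjusted p = 1.55e-07) in 9S/T-A, or 5.76-fold and 6.25-fold lower. Its neighbour Cldn3, 39.3 kb away, had log2 fold changes of -0.45 (SE 0.10) and -0.81 (SE 0.13) in the same comparisons.

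The direction of the smaller tissue differences depended on how the libraries were scaled. TMM scaling, used above, placed the median gene at 0.03 in WT and 0.04 in 9S/T-A, whereas plain library totals placed it at 0.74 and 0.85, with 12241 genes called higher and 1903 lower in WT against 5625 and 5169 with TMM. With TMM, Cldn3 (-0.45 and -0.81 in WT and 9S/T-A), Cldn7 (-0.43 and -0.55), Cldn15 (-0.47 and -0.83), Ocln (-0.77 and -0.84) and Tjp1 (-0.60 and -0.68) were called lower in both genotypes. With plain totals, Cldn3 (0.26), Cldn7 (0.28) and Cldn15 (0.24) were called higher in WT and Cldn7 (0.25) in 9S/T-A, and Ocln (-0.06 and -0.05), Tjp1 (0.12 and 0.12) and, in 9S/T-A, Cldn3 (-0.01) and Cldn15 (-0.03) were not called. In either case these 5 genes lay below the median gene. With totals that left out the most abundant genes, an alternative chosen after seeing the data, all 5 kept the direction they had with TMM (-0.32, -0.29, -0.33, -0.64 and -0.46 in WT). Cldn2, Cldn4 and Cldn8 kept their direction and call under every scaling. Cldn23 was higher in colon in WT with TMM (0.34, SE 0.11, edgeR adjusted p = 0.0147) and not called in 9S/T-A (0.08, SE 0.13, adjusted p = 0.632), where plain totals called it higher (0.89). The genotypes' tissue differences of Cldn23 were not shown to differ (interaction -0.27, SE 0.18, adjusted p = 0.716).

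**Figure D5:**
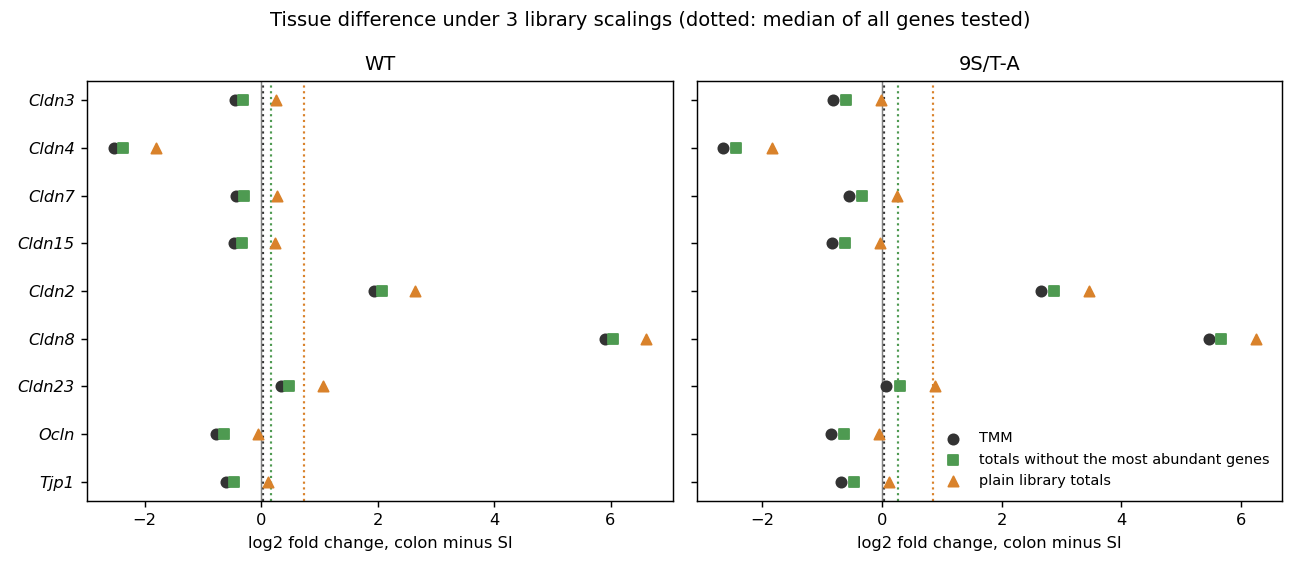
Tissue difference (log2 fold change, colon minus SI) of the 9 tested genes in WT (left) and 9S/T-A (right) under 3 library scalings, with the median of all genes tested as a dotted line for each. Plain totals move every gene to the right with the median (0.74 in WT, 0.85 in 9S/T-A) and so carry Cldn3, Cldn7, Cldn15 and Tjp1 across or up to 0, while Cldn2, Cldn4 and Cldn8 keep their side.

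Cell type markers moved with the tissue as well. The summed Paneth markers were 36810 to 74030 CPM in the SI libraries and 182 to 1489 in colon, the summed absorptive markers 3337 to 6887 and 340 to 736, and the summed enteroendocrine markers 151 to 438 and 40.8 to 98.0. All 6 markers of each of the Paneth, enteroendocrine, tuft and cycling lists were called lower in WT colon by edgeR, beside 30.4% of all genes. With plain totals, 6, 5, 5 and 3 of them were called lower and 0 higher. Of 7 goblet markers, 0 were called higher and 5 lower (2 and 5 with plain totals). Stem and absorptive markers were called in both directions. Of 6 stem markers, 1 was called higher and 4 lower (2 and 2 with plain totals). Of 10 absorptive markers, 2 were called higher and 7 lower (3 and 7 with plain totals). The largest WT tissue differences of the marker lists were those of Defa24 (-10.24) and Lyz1 (-9.93) for Paneth cells, Olfm4 (-9.92) and Smoc2 (-1.57) for stem cells, Apoa1 (-9.67) and Apoa4 (-9.67) for absorptive cells, and Zg16 (-4.14) and Tff3 (-4.02) for goblet cells. They were Neurog3 (-3.28) and Neurod1 (-2.30) for enteroendocrine cells, Avil (-2.39) and Pou2f3 (-2.33) for tuft cells, Top2a (-1.48) and Mki67 (-1.41) for cycling cells, Ptprc (-3.25) for leukocytes and Vwf (2.02) for endothelium, whose defining markers Cdh5 and Emcn were at 0 in WT SI and in both colon groups. Cell make-up and tissue cannot be told apart in these libraries.

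The rest of the junction was read from lists of genes. For comparison with the list counts below, edgeR called 33.1% of all genes higher and 30.4% lower in WT colon. Of 27 other claudin genes, 4 passed the filter on low counts in the WT tissue comparison, where 2 were called higher in colon and 2 lower (2 and 1 with plain totals), and for genotype 0 of 3 tested in SI and 0 of 4 in colon were called with edgeR or DESeq2 (1 and 0 had an unadjusted edgeR p below 0.05). Cldn14, a sealing claudin known from the inner ear and kidney, had 3 to 12 counts per library in WT SI and 546 to 871 in WT colon (log2 fold change 5.85, SE 0.20, edgeR adjusted p = 1.68e-12). Cldn12 was at 13.4 ± 1.48 RPKM in WT SI and 16.4 ± 1.23 in WT colon (0.26, SE 0.08, adjusted p = 0.0114). In level per length Cldn14 reached 5.29 ± 0.736 RPKM in WT colon, below Tjp1, and Cldn12 stood beside Ocln.

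Among 12 other tight junction membrane proteins, 8 were tested for tissue in WT, with 2 called higher in colon and 4 lower. With plain totals 5 were called higher and 1 lower. Ildr1, which encodes angulin-2 of tricellular junctions, was at 1.36 ± 0.236 RPKM in WT SI and 26.1 ± 2.64 in WT colon (log2 fold change 4.23, SE 0.12, edgeR adjusted p = 2.01e-13). It was also the only gene of the junction lists called for genotype in SI, at 0.755 ± 0.221 RPKM in 9S/T-A (-0.85, SE 0.18, adjusted p = 0.0292), with 184 to 333 counts per library in WT SI and 79 to 205 in 9S/T-A SI. Leaving out 1 library ended that call in 5 of 12 fits (adjusted p up to 0.0727). In colon Ildr1 had a genotype log2 fold change of -0.02 (SE 0.09). The difference of the 2 genotype effects (colon minus SI) was 0.80 (SE 0.20, edgeR adjusted p = 0.0862) in the fit without the pairing. With the SI and colon libraries paired as a replicate block the edgeR adjusted p was 0.0295. Igsf5, also a junction protein of the gut epithelium, was lower in colon (-1.38, SE 0.08).

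On the cytoplasmic side, plaque and polarity genes differed between the tissues in both directions. Of 15 such genes tested, 4 were called higher and 8 lower in WT colon. Cgnl1, which encodes paracingulin, was at 0.507 ± 0.0597 RPKM in WT SI and 6.04 ± 0.515 in WT colon (log2 fold change 3.54, SE 0.09, edgeR adjusted p = 1.07e-13). With plain totals 12 of the 15 were called higher and 2 lower, in step with the shift of the median gene.

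The adherens junction and desmosome lists leaned to lower levels in colon with TMM. Of 10 adherens junction genes, 1 was called higher in WT colon (Nectin4, log2 fold change 2.12, SE 0.14) and 9 lower, among them Nectin1 (-1.30, SE 0.10). Of 8 desmosome genes, 2 were higher, among them periplakin (Ppl, 0.86, SE 0.14), and 6 lower, among them plakophilin 3 (Pkp3, -1.13, SE 0.08). With plain totals the counts were 4 higher and 2 lower for the first list and 5 higher and 1 lower for the second. The median log2 fold changes with TMM were -0.63 and -0.47, beside 0.03 over all genes and -0.45 over the 9 members.

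Among claudin partners and junction proteases, 1 of 5 tested genes was called higher and 3 lower in WT colon, with the protease inhibitor Spint1 at -1.12 (SE 0.09) and its target protease St14 at -0.85 (SE 0.09). With plain totals 3 were called higher and 1 lower, Spint1 was at -0.40 and St14 was not called (-0.14, edgeR adjusted p = 0.1245). Of 8 contractility genes, 0 were called higher and 7 lower with edgeR, led by Rock2 (-2.002, SE 0.15) and Myh14 (-0.76, SE 0.11), whereas plain totals called 4 higher and 1 lower, and not Myh14 (-0.04). Of 9 transcription factors known to act on claudin genes, 4 were called higher and 4 lower, or 7 and 2 with plain totals. Gata4, a factor of the proximal SI, was at 27.6 ± 1.77 RPKM in WT SI and 0.0843 ± 0.0375 in WT colon (-8.37, SE 0.19), and Klf5 at 50.98 ± 4.98 and 111 ± 9.62 (1.09, SE 0.08). For genotype in SI, edgeR and DESeq2 called 0 of 54 tested genes of the plaque, adherens junction, desmosome, partner, contractility and transcription factor lists. Of these, 4 had an unadjusted edgeR p below 0.05. In colon 0 of the 55 tested were called, and 2 had such a p. Over all genes, edgeR called 1.94% in SI and 0.318% in colon (DESeq2 4.8% and 1.56%), so few calls would be expected in lists of this size.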

How the data were processed

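Stranded polyA libraries of sorted cells were sequenced as single-end reads and aligned by the authors to GRCm38 (the submitters' processing notes name GRCm38.p3, TopHat2 2.1.1, Subread 1.5.2 and DESeq2 1.14.1). The deposited values are raw counts per Ensembl gene over exons, by strand, without normalization. Symbols came from GENCODE M21 and named 44671 of 45513 genes (98.15%), and 176 of 178 listed symbols were found. Between libraries of a group, the lowest mean chi-square per gene was 31.0 over 60 pairs, so no library was a duplicate of another.

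Counts were fitted with edgeR 4.0.16 in R 4.3.3 (filterByExpr, TMM, quasi-likelihood test, Benjamini-Hochberg over all genes tested, threshold 0.05). The SE of a log2 fold change is its size divided by the root of F. RPKM used the exon lengths of the files and TMM factors over the 24 libraries. The fit was tested on simulated data. All simulated libraries of a comparison shared 1 mean profile, apart from the genes set to change. The simulation therefore did not cover the difference in make-up between SI and colon libraries. DESeq2 was version 1.42.0.

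The genes and lists were chosen with earlier results of these data known. Named genes were the 10 members, list genes called for genotype or the interaction, and for tissue the 2 genes of each list with the largest change in WT among those averaging 1 log2 CPM or more, of which 1 is not reported here. For likeness, the 2 genes with the highest r of log2(CPM + 1) were taken, among tested genes averaging 1 log2 CPM or more. Alternatives were DESeq2, its size factors, plain totals, totals without the 20 most abundant genes of any library, no filter, a filter at 10 counts on average, a replicate block, sex in the model, all libraries in 1 fit, and each library left out.

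Libraries are numbered 2 to 7 in each group. The series text gives 6 mice with SI and colon taken from each, and the study's supplement gives an n of 6 for each genotype. If libraries of a group shared mice, p-values would measure a smaller spread than that between mice. Deviations from the group means, correlated across genes, were above 0.1 for every same-numbered SI and colon pair (0.168 to 0.568 in WT, 0.159 to 0.649 in 9S/T-A), so the numbers were taken to pair the tissues. WT and 9S/T-A libraries of 1 number did not all meet this (-0.095 to 0.70 in SI, 0.020 to 0.85 in colon). In colon their mean was 0.41, against 0.29 for the WT and 0.37 for the 9S/T-A tissue pairs. Each number was also of 1 sex in all 4 groups. The check therefore cannot tell a shared mouse from anything else that libraries of 1 number share, and the pairing is an assumption.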

Additional observations from a re-analysis of the deposited data

Results flagged for a closer look

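In groups of 6 libraries, a library was marked where its gap to the nearest other library exceeded 0.625 of the group's range (Dixon's critical value). Of 38 groups checked, chance marks about 1 in 20. Cldn7 had 1 library apart in both colon groups, replicate 7 each time, at 182 RPKM in WT colon and 172 RPKM in 9S/T-A colon, below the others. Ocln had a high WT SI library, replicate 2, at 31.3 RPKM. Cldn1 had a high 9S/T-A SI library, replicate 6, at 0.151 RPKM, which is 23 counts. The genotype difference of Cldn2 differed between the tissues with the replicate block (0.70 on the log2 scale, edgeR adjusted p = 0.0382), while without the block the adjusted p was 0.230. The cause of these values was not tested.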

How the results depend on the processing

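Of the 9 tested members, DESeq2, the replicate block (sharing a number only, since WT and 9S/T-A libraries of 1 number did not all deviate together) and the fit of all 24 libraries each called 2 members for genotype in SI, where edgeR on the 12 libraries called 1: Cldn23 joined Cldn2 each time. With 1 library left out the count was 0 to 2. With the block and 1 number left out it was 4 without replicate 2, where 15.2% of all genes tested were called. It was 0 without replicate 3, 4, 6 or 7, where 1.15 to 1.43% of all genes were. The whole-table count of genes called for genotype also moved, from 315 to 779 with DESeq2 and 477 with the block in SI, and from 54 to 254 and 385 in colon. For the interaction it moved from 74 to 257 with DESeq2 and 342 with the block, which called 1 member. The block changed no other call of a member.

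Signs turned only where no call was made with TMM, or with plain library totals between the tissues. For genotype in SI, plain totals gave Cldn7 -0.067, Ocln -0.069 and Tjp1 -0.056, and totals without the most abundant genes gave -0.016, -0.025 and -0.012. With the block, Cldn7 was at -0.001 without replicate 5 and Cldn8 at -0.047 without replicate 2. For genotype in colon, leaving out 1 library gave ranges of -0.035 to 0.21 for Cldn2, -0.057 to 0.042 for Ocln and -0.052 to 0.015 for Tjp1. With the block, Cldn2 was at -0.057 without replicate 4, Ocln at 0.0023 and 0.015 without replicates 5 and 7, and Tjp1 at 0.0068 and 0.013 without replicates 4 and 5. In the interaction, plain totals gave 0.011 for Ocln and 0.0012 for Tjp1, totals without the most abundant genes gave 0.0013 for Ocln, and leaving out 1 library gave -0.24 to 0.088 for Cldn4.

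Between the tissues, plain totals turned Cldn3 (0.26), Cldn7 (0.28), Cldn15 (0.24) and Tjp1 (0.12) in WT, and Cldn7 (0.25) and Tjp1 (0.12) in 9S/T-A, where 5 members were called in place of 8. No other alternative, including each of the 12 libraries left out, changed a sign or a call of a tissue difference, except that plain totals ended the calls of Ocln and Tjp1 in WT, and those of Ocln, Tjp1, Cldn3 and Cldn15 in 9S/T-A, and added Cldn23 there. The cause was not tested. Of 40 levels per length, 28 moved by more than 1 SD with plain totals. Cldn1 was too low to test at this depth in either tissue, and Cldn8, with 11 to 48 counts per SI library, had an SE of 0.30 for genotype.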
